A study of Mus musculus with 10 samples.

Results

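The 10 chemokine genes that epithelial cells are best known for making were examined in the epithelium of mouse gingiva (gum). They are Cxcl1, Cxcl2, Cxcl5, Cxcl14, Cxcl16, Cxcl17, Ccl20, Ccl27a, Ccl28 and Cx3cl1, taken by symbol from the deposited gene table. All 10 were among the 49164 genes with values, and 9 of them were among the 14062 genes abundant enough to test, Cxcl17 being the exception. Polyadenylated RNA was sequenced from 5 palatal samples, from the gingiva that faces the palate, and 5 buccal samples, from the gingiva that faces the cheek. The epithelium of both sides was freed with the protease Dispase and lifted off under a microscope. The labels give neither strain, genotype, age nor microbial status for these mice, and they do not say whether each of the 5 samples of a side is from an animal of its own, so every p-value is set against the spread among these libraries, part or all of which may be technical. The question addressed by the comparison is how gingival epithelium differs between the sides of the tooth row.

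Chemokines are small secreted or membrane-anchored proteins that bind receptors on leukocytes and steer their movement. In barrier epithelia some are made at rest, such as Cxcl14, Ccl27a and Ccl28, and others are switched on by interleukin 1, interleukin 17 and tumour necrosis factor through the transcription factor NF-kB, such as Cxcl1, Cxcl2, Cxcl5 and Ccl20. In the gum, chemokines that bind Cxcr2 draw neutrophils through the junctional epithelium, the part of the epithelium attached to the tooth, into the crevice beside it.

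Total counts were 25868777 to 35583168 in palatal and 29317011 to 37234192 in buccal libraries. Levels below are CPM, the counts scaled to a common library size by TMM, and differences are log2 fold changes of palatal over buccal with their standard error. A gene was called at an adjusted p under 0.05 in edgeR's quasi-likelihood test across all 14062 genes. Among all tested genes 18.7% were higher and 20.3% were lower in palatal epithelium, 38.9% in all, and for 28.3% the libraries of the sides did not overlap. Epithelial identity was clear on both sides, with keratinocyte markers summing to 106066 to 115927 CPM in palatal and 140915 to 158406 CPM in buccal libraries. Leukocytes were present too: all 5 pan-leukocyte markers were lower in palatal libraries, where they summed to 7.22 to 11.2 CPM, against 23.7 to 39.4 CPM in buccal libraries. In bulk RNA, fewer cells of a type and less RNA per cell cannot be told apart. Buccal replicate 4 stood apart from the other buccal libraries in the neutrophil-attracting chemokines, and results for these are given with and without it.

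The promoters of 7 of the 10 genes were found by symbol in RefSeq (GRCm38.p6). Shown here are the 100 bases before the start of Cxcl1 and Cxcl2, which were low together in 1 library, and of Ccl20, an NF-kB-responsive chemokine that was not low in it. Capitals mark every match to GGGNNNNNCC on either strand, overlapping matches merged. This is a loose form of the NF-kB site.
Cxcl1, chr5:90891145-90891244, plus strand: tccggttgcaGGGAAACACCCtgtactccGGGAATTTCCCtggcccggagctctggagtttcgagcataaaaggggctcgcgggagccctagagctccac
Cxcl2, chr5:90903799-90903898, plus strand: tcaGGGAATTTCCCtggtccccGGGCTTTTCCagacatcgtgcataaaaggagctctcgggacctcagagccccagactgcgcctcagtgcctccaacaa
Ccl20, chr1:83116666-83116765, plus strand: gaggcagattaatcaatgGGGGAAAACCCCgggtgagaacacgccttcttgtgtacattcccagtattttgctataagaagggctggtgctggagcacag
The match that Cxcl1 and Cxcl2 share, GGGAATTTCC, is a well-known NF-kB site and begins 71 bases before the start in Cxcl1 and 97 bases before it in Cxcl2. It occurs on either strand in 29 of 32851 RefSeq promoter windows, or 0.0883%, each running from 250 bases before to 50 bases after a start. The loose form is common, with a match in 50.8% of the windows. The shared match was taken from the Cxcl1 and Cxcl2 promoters themselves, so its presence in both was fixed in advance. A match is a description of the letters, not evidence of binding.

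Of the 9 tested chemokines, 3 were higher in palatal epithelium (Ccl27a, Ccl28 and Cxcl14), 1 was lower (Cxcl16) and 5 were not called. That is 4 of 9 called, close to the 38.9% of all tested genes. Libraries of the sides did not overlap for 3 of the 9, Ccl27a and Ccl28 above and Cxcl16 below, against 28.3% of all tested genes. The median log2 fold change of the 9 was 0.07, beside 0.01 over all tested genes.

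**Figure D1:**
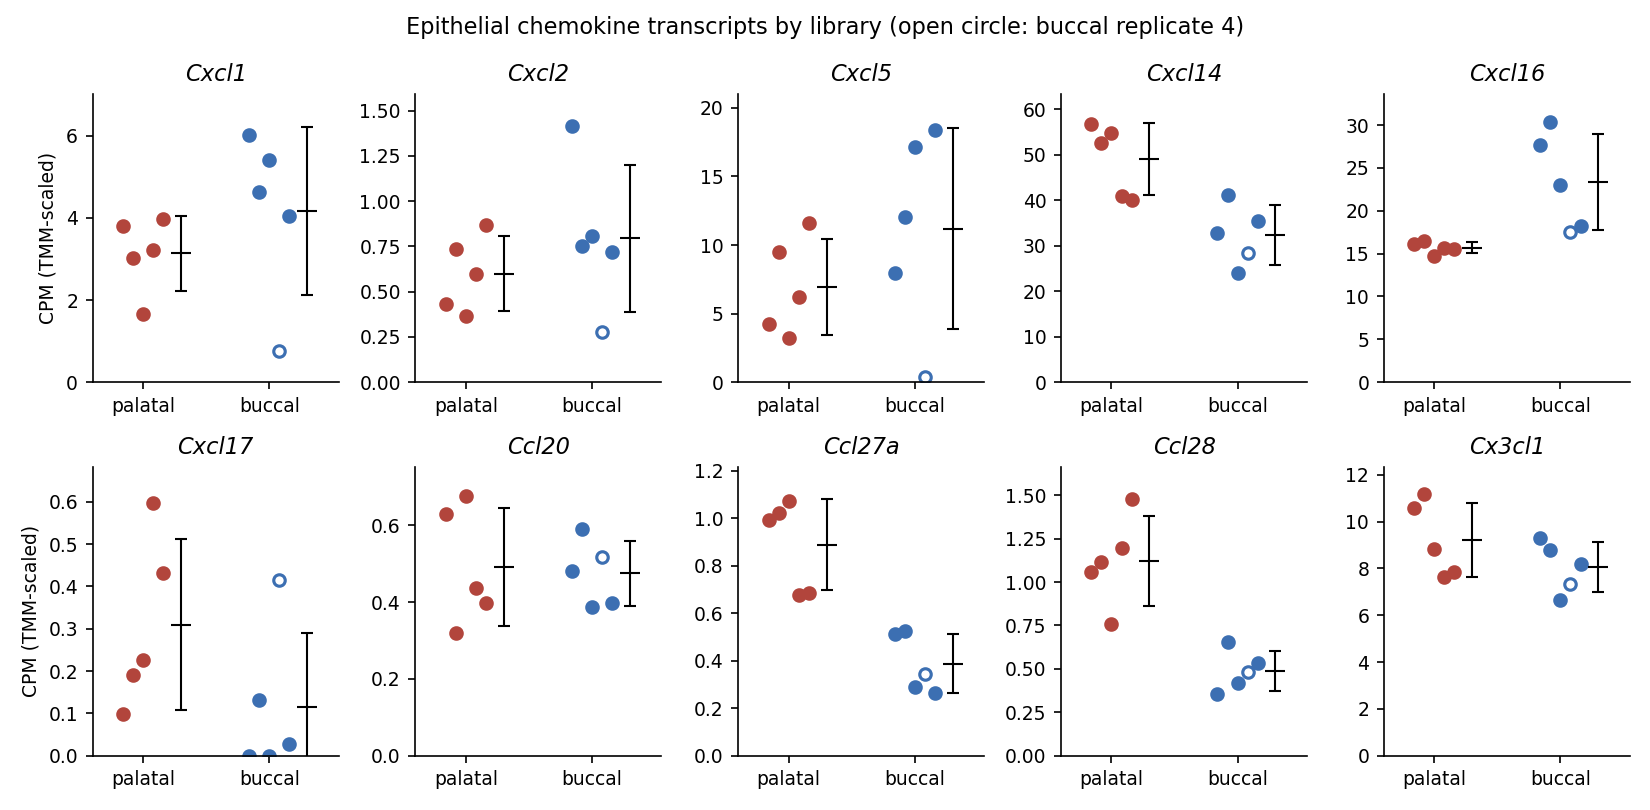
Level of each chemokine (CPM, TMM-scaled) in every palatal (left, red) and buccal (right, blue) library, with the mean and SD of the 5 libraries beside them; the open circle is buccal replicate 4, and the lower SD bar of Cxcl17 in buccal libraries is cut at 0. Ccl27a and Ccl28 sit above all buccal libraries in every palatal library, Cxcl16 sits below them, and Cxcl1, Cxcl2 and Cxcl5 spread widely with buccal replicate 4 lowest.

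Ccl27a and Ccl28 share the receptor Ccr10. Ccl27a is known as the skin chemokine that draws memory T cells to keratinocytes, and Ccl28 as a chemokine of mucosal and glandular epithelium that draws IgA-secreting plasma cells and also binds Ccr3. Ccl27a stood at 0.993, 1.02, 1.07, 0.677 and 0.685 CPM in palatal replicates 1 to 5, against 0.514, 0.525, 0.290, 0.345 and 0.266 CPM in buccal replicates 1 to 5. Every palatal library was above every buccal one, and in both sides replicates 1 and 2 were among the higher libraries. The log2 fold change was 1.21 ± 0.25, with a 95% interval of 0.68 to 1.75 and an adjusted p of 0.00136. These levels rest on few reads, 17 to 38 counts per palatal and 9 to 16 per buccal library. The mouse genome holds near-identical copies of Ccl27a, so the division of reads among them is uncertain, and the copy Ccl27b had a count of 0 in every library. Il11ra1, on the opposite strand, shares 8 exon bases with Ccl27a and was itself higher in palatal libraries, at 64 to 96 counts against 49 to 72 in buccal libraries (adjusted p = 0.00189 in edgeR). The strand setting of the counting is not given in the sources used here, so reads in the shared bases cannot be told apart.

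Ccl28 was as much higher as Ccl27a on the palatal side. Its levels were 1.06, 1.12, 0.761, 1.19 and 1.48 CPM in palatal replicates 1 to 5, against 0.354, 0.656, 0.419, 0.483 and 0.532 CPM in buccal replicates 1 to 5. The lowest palatal library, replicate 3, was still above the highest buccal library, replicate 2. The log2 fold change was 1.18 ± 0.23 (95% interval 0.69 to 1.67, adjusted p = 8.11e-04), from 27 to 41 counts per palatal and 11 to 20 per buccal library.

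Because Ccl28 is also known from salivary and mucous glands, gland markers are given beside it. Of 12 such markers 3 were tested and 1, the secreted protein gene Dcpp3, was higher in palatal libraries. The mucin gene Muc5b had a log2 fold change of 3.21 ± 1.14 with an adjusted p of 0.0541. The Dcpp3 call was lost with no filter (adjusted p = 0.128), limma-voom (adjusted p = 0.116) and limma-trend (adjusted p = 0.0771), while Muc5b was called by DESeq2 (adjusted p = 0.0147), limma-voom (adjusted p = 0.0295) and limma-trend (adjusted p = 0.0111). The summed markers were 4.07, 49.5, 11.2, 20.1 and 65.9 CPM in palatal replicates 1 to 5, against 1.48, 4.66, 5.73, 10.9 and 1.20 CPM in buccal replicates 1 to 5. Palatal replicate 5 was the highest library for both the gland sum and Ccl28. Palatal replicate 1 had the lowest palatal gland sum with 1.06 CPM of Ccl28, palatal replicate 3 the lowest palatal Ccl28 with the next lowest sum, and buccal replicate 4 the highest buccal sum with 0.483 CPM of Ccl28. Leaving out palatal replicate 2, 4 or 5, or buccal replicate 1 or 5, brought the count of higher gland markers to 0, and leaving out palatal replicate 1 or buccal replicate 4 brought it to 2. Pigr, the remaining tested marker, was not called over the 10 libraries. Without buccal replicate 2, edgeR called Pigr higher, at 1.86 ± 0.40 (adjusted p = 0.00207), and the Dcpp3 call was lost (adjusted p = 0.0596). The part of gland RNA in the Ccl28 difference was not tested.

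The receptors of this pair were close to the limit of detection. Ccr10 had 25 counts in all palatal and 26 in all buccal libraries, and Ccr3 had 12 and 11, so neither entered the test.

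Cxcl14, a chemokine made constitutively by keratinocytes that attracts monocyte and dendritic cell precursors, was the most abundant of the 10 on both sides. It stood at 56.7, 52.6, 54.9, 41.0 and 40.0 CPM in palatal replicates 1 to 5, against 32.8, 41.2, 24.1, 28.5 and 35.3 CPM in buccal replicates 1 to 5. The sides overlapped: palatal replicates 1, 2 and 3 were above every buccal library, while replicates 4 and 5 lay just below buccal replicate 2. The log2 fold change was 0.60 ± 0.14 (95% interval 0.29 to 0.90, adjusted p = 0.00412), a 1.51-fold difference.

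Fibroblasts also make Cxcl14, and 2 of 5 tested fibroblast markers, the matrix genes Dcn and Fbn1, were higher in palatal libraries, while the collagen genes Col1a1, Col1a2 and Col3a1 were not called. The 7 listed fibroblast markers summed to 72.3 to 91.2 CPM in palatal and 6.94 to 13.1 CPM in buccal libraries. The median log2 fold change of the 5 tested was only 0.22, so the gap in the sum was not shared by all of them. Their part in the Cxcl14 difference was not tested.

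Cxcl16, the ligand of Cxcr6, is made as a membrane protein that holds cells bearing the receptor and is cut loose by Adam10. It was the 1 chemokine of the set that was lower in palatal epithelium. Its levels were 16.1, 16.5, 14.8, 15.6 and 15.5 CPM in palatal replicates 1 to 5, against 27.7, 30.3, 23.0, 17.6 and 18.2 CPM in buccal replicates 1 to 5. The palatal libraries lay in a narrow band below every buccal library, whereas buccal replicates 4 and 5 came close to that band and replicates 1 and 2 were far above it. The log2 fold change was -0.57 ± 0.13 (95% interval -0.86 to -0.28, adjusted p = 0.00355).

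The palatal spread of Cxcl16 had a coefficient of variation of 4.20%, about what counting error alone gives (4.61%), while the buccal coefficient was 24.2% against a counting error of 3.68%. Zmynd15 lies on the opposite strand and shares 552 bases of the 3.021 kb of Cxcl16 exons. It had 14 to 28 counts in palatal and 33 to 82 in buccal libraries and was also lower (log2 fold change -1.17 ± 0.28, adjusted p = 0.00365), beside 392 to 524 and 509 to 924 counts of Cxcl16.

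Dendritic cells and macrophages make Cxcl16 as well. All 7 markers of Langerhans and dendritic cells were lower in palatal libraries, where they summed to 57.5 to 80.7 CPM, against 187.8 to 332.6 CPM in buccal libraries. All 6 tested macrophage markers were lower too, with sums of 12.8 to 18.5 CPM in palatal and 28.2 to 41.9 CPM in buccal libraries. Buccal replicates 1 and 2, the highest for Cxcl16, were also the highest of the 10 for both marker sums. Buccal replicate 3 had the lowest buccal sums, 187.8 and 28.2 CPM, with 23.0 CPM of Cxcl16, above buccal replicates 4 and 5. The part of these cells in the Cxcl16 difference was not tested.

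**Figure D2:**
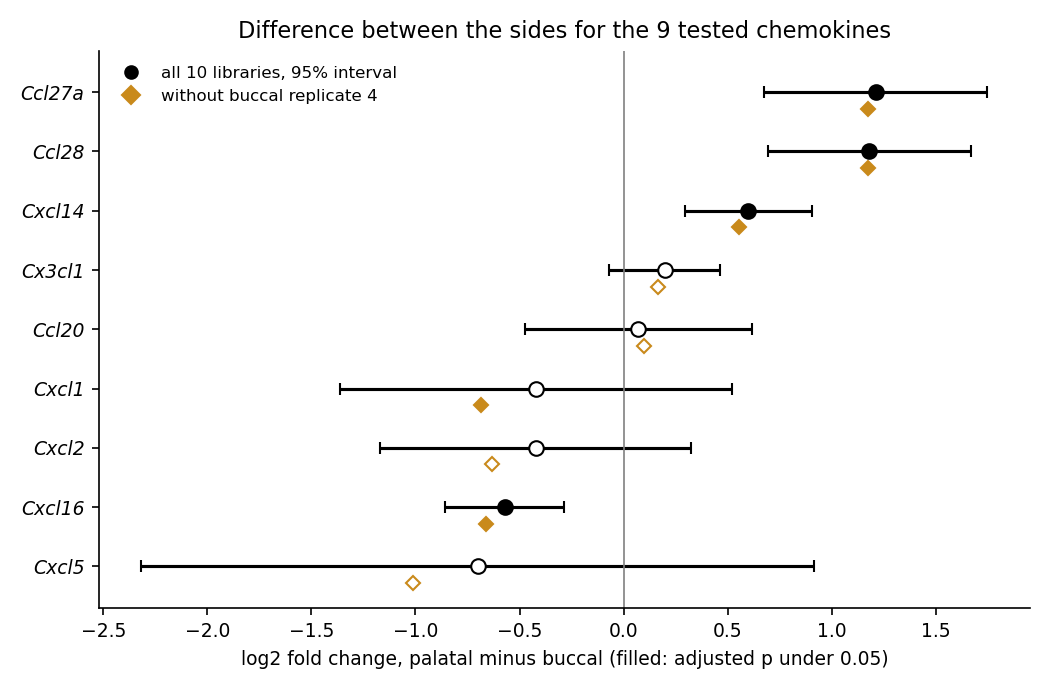
Log2 fold change (palatal minus buccal, x axis) of the 9 tested chemokines with its 95% interval over all 10 libraries (circles), and the value without buccal replicate 4 (diamonds); filled symbols have an adjusted p under 0.05. Ccl27a, Ccl28, Cxcl14 and Cxcl16 are filled with and without that library, Cxcl1 only without it, and the interval of Cxcl5 is the widest, from -2.32 to 0.92.

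Cx3cl1, or fractalkine, is the other membrane-anchored chemokine and binds Cx3cr1 on macrophages and some lymphocytes. It stood at 10.6, 11.2, 8.85, 7.64 and 7.86 CPM in palatal replicates 1 to 5, against 9.29, 8.79, 6.66, 7.32 and 8.19 CPM in buccal replicates 1 to 5. The sides overlapped and the difference was not called (log2 fold change 0.20 ± 0.12, 95% interval -0.07 to 0.46, adjusted p = 0.236). The interval leaves room for a palatal level up to 0.46 log2 units higher.

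Ccl20 draws Ccr6-bearing dendritic cells and interleukin 17-producing lymphocytes. It was scarce, at 0.629, 0.319, 0.677, 0.438 and 0.397 CPM in palatal replicates 1 to 5, against 0.482, 0.591, 0.386, 0.518 and 0.399 CPM in buccal replicates 1 to 5. Its log2 fold change was 0.07 ± 0.25 (95% interval -0.48 to 0.61, adjusted p = 0.857), from 75 counts in all on each side, and its sign turned when palatal replicate 1 or 3 was left out. Ccr6 had 24 counts in all palatal and 41 in all buccal libraries and was not tested.

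Cxcl17, a chemokine of mucosal surfaces, missed the filter on low counts. It had 3, 6, 8, 15 and 12 counts in palatal replicates 1 to 5, against 0, 4, 0, 12 and 1 counts in buccal replicates 1 to 5. Palatal replicates 4 and 5 were above every buccal library in CPM, and buccal replicate 4 was above palatal replicates 1, 2 and 3. A two-sided exact permutation test of the mean CPM gave p = 0.151, where the smallest p that the 252 assignments allow is 0.00794, and no difference was detected.

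Cxcl1, Cxcl2 and Cxcl5 carry the ELR motif of neutrophil attractants and bind Cxcr2. None was called over the 10 libraries. In buccal libraries their coefficients of variation were 49.1% for Cxcl1, 51.2% for Cxcl2 and 65.5% for Cxcl5. Cxcl1, the mouse counterpart of the human GRO chemokines, stood at 3.81, 3.03, 1.66, 3.22 and 3.97 CPM in palatal replicates 1 to 5, against 6.01, 4.63, 5.41, 0.760 and 4.04 CPM in buccal replicates 1 to 5. Apart from replicate 4, every buccal library was above every palatal one.

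Cxcl2, a close relative induced by the same signals, had 0.430, 0.733, 0.366, 0.597 and 0.865 CPM in palatal replicates 1 to 5, against 1.41, 0.755, 0.805, 0.276 and 0.718 CPM in buccal replicates 1 to 5. Here buccal replicate 1 was the highest and buccal replicate 4 again the lowest, from 8 counts. Cxcl5, which epithelia make in response to interleukin 17, had 4.27, 9.47, 3.21, 6.21 and 11.6 CPM in palatal replicates 1 to 5, against 7.97, 12.1, 17.1, 0.380 and 18.4 CPM in buccal replicates 1 to 5. The highest buccal library was 48.4-fold above the lowest, replicate 4, which had 11 counts where the other buccal libraries had 248 to 691. Among palatal libraries replicate 3 was the lowest for all 3 genes.

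Over all 10 libraries the log2 fold change was -0.42 ± 0.42 for Cxcl1 (95% interval -1.36 to 0.52, adjusted p = 0.476). It was -0.42 ± 0.35 for Cxcl2 (95% interval -1.17 to 0.33, adjusted p = 0.370) and -0.70 ± 0.71 for Cxcl5 (95% interval -2.32 to 0.92, adjusted p = 0.483). Without buccal replicate 4, Cxcl1 was lower in palatal epithelium by the same test, at -0.69 ± 0.21 (adjusted p = 0.0212), while Cxcl2, at -0.63 (adjusted p = 0.118), and Cxcl5, at -1.01 ± 0.40 (adjusted p = 0.0806), were still not called. The choice to leave out that library followed from its values, so the Cxcl1 call without it is a description. Summed, the 3 genes reached 8.51, 13.2, 5.24, 10.0 and 16.4 CPM in palatal replicates 1 to 5, against 15.4, 17.5, 23.3, 1.42 and 23.1 CPM in buccal replicates 1 to 5.

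The low values of buccal replicate 4 were extreme against all genes. Each gene's log2 level there was set against the median of the other 4 buccal libraries, over the 12244 genes with at least 1 CPM. Cxcl5, at -5.02, was the lowest of all these genes, and Cxcl1, at -2.62, had 12 genes below it. Cxcl2, at -1.31 from 8 counts, had 42 below it, but averaged under 1 CPM and was not itself among the genes compared. Of the genes compared, 23 lay more than 2 log2 units below in this library, against 0 to 4 in each of the other libraries.

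The 23 included Cxcl3, Ppbp, Lcn2, Odam and Odaph, of which Ppbp, Lcn2 and Odam were picked after their values were seen. Also among the 23 were Gprc5a (-3.25), BC037156 (-2.84), Mfsd4a (-2.74), Aldh1a3 (-2.70) and Tnfrsf11b (-2.67), so the genes described below are a selection. Cxcl3, another Cxcr2 ligand, had 1 count in buccal replicate 4 and 56 to 128 in the other buccal libraries. Ppbp, a Cxcr2 ligand best known from platelets, had 56 counts there and 217 to 697 in the other buccal libraries. Lcn2, an iron-binding antimicrobial protein, had 9 counts there and 42 to 114 in the others.

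Odam and Odaph, genes of the epithelium attached to the tooth and of enamel-forming cells, were low there too. Odam had 78.7, 106.5, 39.1, 71.1 and 86.8 CPM in palatal replicates 1 to 5, against 101.4, 102.3, 84.3, 10.7 and 75.6 CPM in buccal replicates 1 to 5. Odaph had 18.1, 24.3, 9.50, 22.4 and 30.7 CPM in palatal replicates 1 to 5, against 24.4, 28.4, 25.7, 1.10 and 28.8 CPM in buccal replicates 1 to 5. Buccal replicate 4 and palatal replicate 3 were the lowest library of their side for both genes, as they were for Cxcl1, Cxcl2 and Cxcl5. Neither Odam (adjusted p = 0.973) nor Odaph (adjusted p = 0.958) was called between the sides by edgeR. Amtn, listed with them as a gene of this tooth-facing epithelium, had 0 counts in all palatal and 1 in all buccal libraries. Odam was looked up after its values were seen, and its part, or that of the tissue it marks, in the Cxcl1, Cxcl2 and Cxcl5 values was not tested.

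**Figure D3:**
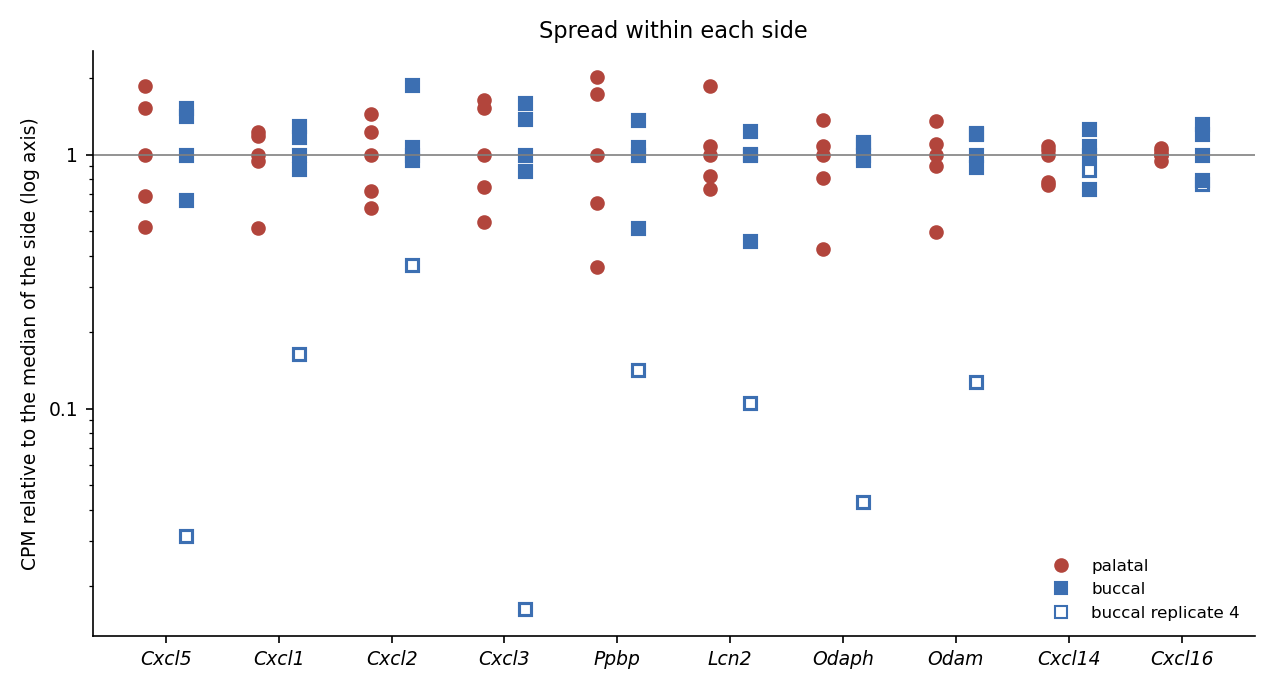
Level of each gene in every library divided by the median of its side (y axis, log scale), for palatal (circles) and buccal (squares) libraries; the open square is buccal replicate 4. That library lies far below the others for the Cxcr2 ligands Cxcl5, Cxcl1, Cxcl3 and Ppbp and for Lcn2, Odaph and Odam. For Cxcl2 it is the lowest by a smaller gap, from 8 counts. For Cxcl14 and Cxcl16 it lies within the range of the other buccal libraries or just below it.

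The genes nearest in pattern to each chemokine were taken over the same 10 libraries, so for Cxcl5, Cxcl1 and Cxcl2 they restate in large part the low values of buccal replicate 4. Each gene's log2 CPM over the 10 libraries was centred on its own mean, and the root mean square difference from each chemokine was taken over 11595 genes. The nearest genes to Cxcl5 were Odaph at 0.44, Cxcl3 at 0.55 and U90926 at 0.61 log2 units. Those to Cxcl1 were Cdo1 (0.26), Il13ra2 (0.32) and Sprr2d (0.32), and those to Cxcl2 were Calcb, Stmn2 and Fam20c, each at 0.32.

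The steadier chemokines had closer neighbours. Cxcl14 was nearest to Scara3 (0.13), Rhbdf2 (0.14) and Itpkb (0.15), and Cxcl16 to Zcwpw1 (0.11), Bub1b (0.11) and Nuf2 (0.12), Bub1b and Nuf2 being genes of the mitotic spindle checkpoint and the kinetochore. Ccl27a was nearest to Cdhr1 (0.17), Krt6a (0.20) and Ctnnd2 (0.21). Ccl28 was nearest to Trp53inp1 (0.20), Slc39a6 (0.21) and Rabgap1l (0.21), Cx3cl1 to Tmem30b (0.09), Wnt9a (0.09) and Nacc2 (0.10), and Ccl20 to Crem at 0.17. Since every gene's distance includes the side-to-side difference and the counting noise of low genes, these distances are descriptions.

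To compare genes with each other, levels were divided by exon length (CPM per kb). On the palatal side Cxcl14, at 26.8 CPM per kb, was above Cxcl16 (5.20) in all 5 libraries. Below them came Cxcl5 (3.73), Cx3cl1 (2.35) and Cxcl1 (1.67), and then Cxcl17 (0.406), Ccl27a (0.374), Ccl20 (0.346), Cxcl2 (0.289) and Ccl28 (0.232), all in CPM per kb. Among these last 5, Cxcl17 was above Ccl27a in 2 of 5 libraries, Ccl27a above Ccl20 in 2 and Ccl20 above Cxcl2 in 3, so their order is not settled.

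On the buccal side the order of mean CPM per kb was Cxcl14 (17.7), Cxcl16 (7.73), Cxcl5 (6.01), Cxcl1 (2.22), Cx3cl1 (2.05), Cxcl2 (0.384), Ccl20 (0.334), Ccl27a (0.163), Cxcl17 (0.150) and Ccl28 (0.101). Cxcl14 was above Cxcl16 in all 5 libraries there too. Cxcl16 was above Cxcl5 in 3 of 5, and Cxcl5 above Cxcl1 in 4 of 5.

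Receptors of these chemokines were listed next, with none for Cxcl14 or Cxcl17. Of 7, 3 were tested and all 3 were lower in palatal epithelium, against 20.3% of all genes. Their median log2 fold change was -0.88, beside 0.01 over all tested genes. Cxcr2, the receptor for Cxcl1, Cxcl2 and Cxcl5 and best known from neutrophils, stood at 3.61, 4.56, 3.52, 3.66 and 4.29 CPM in palatal replicates 1 to 5, against 8.91, 12.1, 10.1, 9.56 and 9.79 CPM in buccal replicates 1 to 5. The sides did not overlap, buccal replicate 4 lay within its side, and the log2 fold change was -1.36 ± 0.11 (adjusted p = 2.03e-07).

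Defining neutrophil markers were at or near 0. Ly6g had 0 counts in all palatal and 2 in all buccal libraries, Elane 0 and 2, Camp 1 and 1, Mpo 7 and 8, and Csf3r 17 and 15. Of the 9 listed, only Ltf and Itgam were tested, and both were higher in palatal libraries: the 9 summed to 63.7 to 157.6 CPM in palatal and 6.57 to 29.4 CPM in buccal libraries. Ltf, the gene of lactoferrin, is also made by glands, and Itgam by other myeloid cells.

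Cxcr6, the receptor for Cxcl16 on T and innate lymphoid cells, was lower in the same direction as its ligand. It had 0.596, 0.478, 0.338, 0.677 and 0.793 CPM in palatal replicates 1 to 5, against 1.61, 0.952, 1.06, 0.829 and 0.798 CPM in buccal replicates 1 to 5. The sides did not overlap, though palatal replicate 5 and buccal replicate 5 nearly met (log2 fold change -0.88 ± 0.26, adjusted p = 0.0160).

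Cx3cr1 had 0.496, 0.606, 0.282, 0.358 and 0.361 CPM in palatal replicates 1 to 5, against 0.611, 0.984, 1.06, 0.760 and 0.452 CPM in buccal replicates 1 to 5. The sides overlapped, the log2 fold change was -0.86 ± 0.29 (adjusted p = 0.0272), and the call was lost without palatal replicate 3, 4 or 5 or buccal replicate 2 or 3 (adjusted p of 0.0572 to 0.0789). T and innate lymphoid cell markers moved with Cxcr6, with 6 of 7 tested lower and Thy1 higher, and their summed level was 21.2 to 30.9 CPM in palatal and 21.0 to 27.6 CPM in buccal libraries. The part of leukocyte numbers in the receptor differences was not tested.

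**Figure D4:**
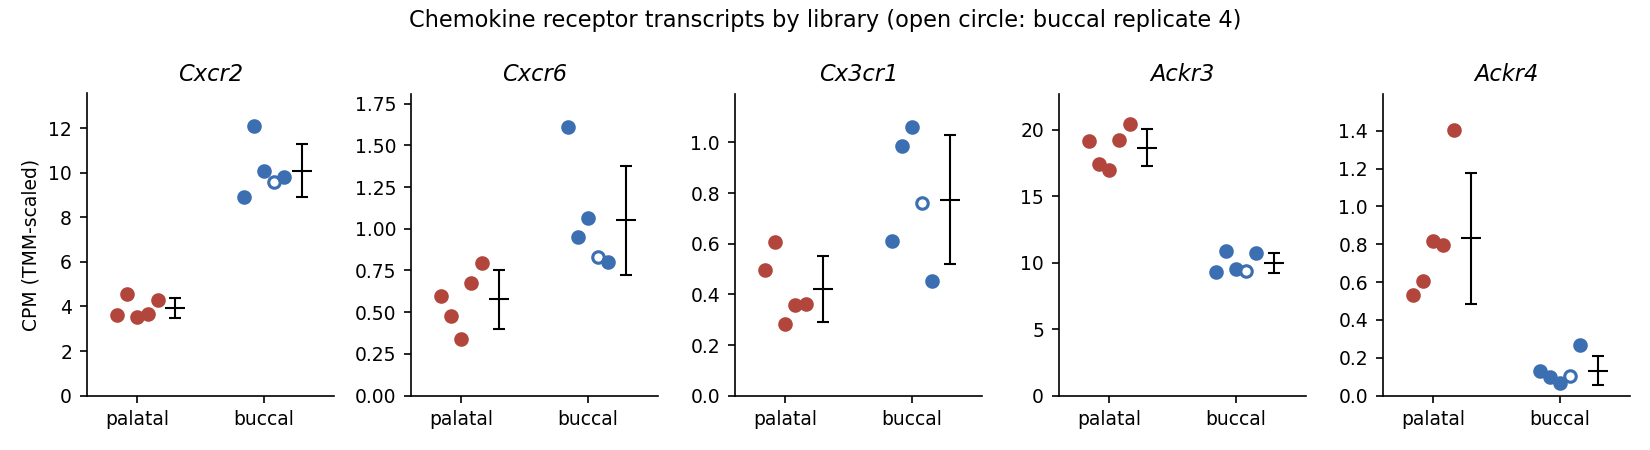
Level (CPM, TMM-scaled) of 3 signalling receptors and 2 atypical receptors in every palatal (left, red) and buccal (right, blue) library, with the mean and SD of the 5 libraries; the open circle is buccal replicate 4. Cxcr2 and Cxcr6 lie below all buccal libraries in every palatal library, Cx3cr1 overlaps, and Ackr3 and Ackr4 lie above.

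Atypical receptors bind chemokines without signalling through G proteins and clear them. Of 5, 3 were tested: Ackr3 and Ackr4 were higher and Ccrl2 was lower in palatal libraries. Ackr3, a scavenger of Cxcl12, averaged 18.6 ± 1.40 CPM in palatal and 9.96 ± 0.753 CPM in buccal libraries (SD, n = 5 each), with a log2 fold change of 0.90 ± 0.08 (edgeR adjusted p = 5.59e-07). Ackr4, which removes Ccl19, Ccl21 and Ccl25, averaged 0.831 ± 0.344 CPM in palatal and 0.132 ± 0.0782 CPM in buccal libraries (SD, n = 5 each), with a log2 fold change of 2.56 ± 0.38 (edgeR adjusted p = 8.27e-05). Ccrl2, which presents chemerin, had a log2 fold change of -1.11 ± 0.33 (adjusted p = 0.0159). Leaving out any 1 palatal library, or buccal replicate 3, brought the count of lower atypical receptors to 2.

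Other chemokine receptors and ligands, mostly those of leukocytes, were listed as well. Among the other receptors, Ccr2 (log2 fold change -1.99), Ccr1 (-1.54) and Ccr9 (-0.39) were lower in palatal libraries. Of 31 other ligands 11 were tested, 5 were lower and 6 were not called, with a median log2 fold change of -1.83. Buccal replicate 2 stood apart here: the 31 ligands summed to 288.4 CPM in it and to 35.3 to 65.4 CPM in the other buccal libraries, and 32 of the 12244 genes lay more than 2 log2 units above the median of the other buccal libraries in it. Without it the log2 fold change was -0.95 for Ccl2, against -1.83 with it, and -2.19 for Ccl11, against -3.50 with it. Xcl1, a product of activated T and NK cells, was lower, at -2.98 log2 units (adjusted p = 1.05e-05), and Ccl22, a product of dendritic cells, was at -2.08 (adjusted p = 2.29e-05). The calls of Ccl2, Ccl9 and Ccl11 were each lost without several single libraries, and the count fell to 2 without palatal replicate 1, 3 or 5 or buccal replicate 1 or 2, and to 3 without palatal replicate 4. Of the other Cxcr2 ligands, neither Cxcl3 nor Ppbp was called: Cxcl3 averaged 2.09 ± 0.920 CPM in palatal and 2.07 ± 1.30 CPM in buccal libraries (SD, n = 5 each), and Ppbp averaged 9.01 ± 5.52 CPM in palatal and 11.1 ± 6.61 CPM in buccal libraries.

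Proteases that release or trim these chemokines differed in part. Of 6 tested, 1 was higher and 2 were lower. Dpp4, a membrane peptidase that clips the amino end of several chemokines, averaged 14.8 ± 1.26 CPM in palatal and 42.8 ± 9.68 CPM in buccal libraries (SD, n = 5 each), with a log2 fold change of -1.53 ± 0.13 (edgeR adjusted p = 6.76e-07). Ctss, a cathepsin of antigen-presenting cells, was lower as well (-1.59 ± 0.31, adjusted p = 0.00180). Rhbdf2, which escorts Adam17 to the cell surface, was higher (0.52 ± 0.11, adjusted p = 0.00167). Adam10, the main sheddase of Cxcl16 and Cx3cl1 at rest, had a log2 fold change of 0.02 ± 0.08 (adjusted p = 0.896). Adam17, the inducible sheddase, had -0.16 ± 0.07 (adjusted p = 0.0876) and was called lower without buccal replicate 1 (adjusted p = 0.0464) and with library totals in place of TMM (adjusted p = 0.0243).

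Among cytokines that induce the Cxcr2 ligands and Ccl20, 6 of 13 were tested. Tnf was lower, at 0.473 ± 0.171 CPM in palatal and 1.20 ± 0.403 CPM in buccal libraries (SD, n = 5 each; log2 fold change -1.32 ± 0.29, edgeR adjusted p = 0.00207). Il36g, an interleukin of stressed keratinocytes, was higher by 0.22 ± 0.08 log2 units (adjusted p = 0.0494), a call lost under 8 of 10 single-library omissions and under RLE or library-total scaling, the stricter filter or limma-trend. Il1a (0.13 ± 0.11, adjusted p = 0.390) and Il1b (-0.55 ± 0.42, adjusted p = 0.334) were not called.

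Of 11 receptors and adaptors for these cytokines, 4 were lower and 7 were not called. Il22ra1, the epithelial receptor chain for interleukin 22, was lower, at -0.56 ± 0.09 log2 units (adjusted p = 1.97e-04), and Myd88, the adaptor of interleukin 1 and Toll-like receptors, was at -0.48 ± 0.07 (adjusted p = 1.15e-04). Traf3ip2, the adaptor of interleukin 17 receptors, was lower, at -0.22 ± 0.06 (adjusted p = 0.0108, and 0.0615 with no filter on low counts). Il17rc, a chain of the interleukin 17 receptor, was lower, at -0.43 ± 0.14 (adjusted p = 0.0278), a call lost under 7 of 10 single-library omissions and with no filter on low counts (adjusted p = 0.122).

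NF-kB subunits and feedback genes were tested in full, and of 15, 2 were higher and 7 lower, with a median log2 fold change of -0.32. The feedback and inhibitor-family genes Tnfaip3 (-0.68 ± 0.16, adjusted p = 0.00315), Bcl3 (-0.69 ± 0.13, adjusted p = 6.65e-04) and Nfkbib (-0.32 ± 0.06, adjusted p = 8.31e-04) were lower. Tnip1, a partner of Tnfaip3, was higher (0.52 ± 0.06, adjusted p = 8.98e-06). Of 6 regulators of chemokine mRNA decay, 1 was lower: Zc3h12a, the RNase that degrades transcripts such as Cxcl1, averaged 26.4 ± 4.82 CPM in palatal and 44.4 ± 7.58 CPM in buccal libraries (SD, n = 5 each; log2 fold change -0.75 ± 0.13, edgeR adjusted p = 5.17e-04). A second regulator, Zfp36l2, was called with library totals, with DESeq2, or without palatal replicate 1, which makes 2.

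Antimicrobial and inflammatory genes that keratinocytes induce together with these chemokines formed the last list. Of 13, 9 were tested and edgeR called 0, with 1 at an unadjusted p under 0.05 and 1 called by DESeq2, by limma-voom and by limma-trend. That gene was S100a8, a calprotectin subunit, at 16.3 ± 6.89 CPM in palatal and 32.0 ± 13.8 CPM in buccal libraries (SD, n = 5 each). Its log2 fold change was -0.98 ± 0.38 (edgeR adjusted p = 0.0742), and it was called without buccal replicate 4 (adjusted p = 0.0406). The other calprotectin subunit, S100a9, was not called (log2 fold change -0.36 ± 0.42, edgeR adjusted p = 0.540).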

How the data were processed

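Polyadenylated RNA went into stranded libraries, per the labels' protocols. GRCm39 is the build, and DESeq2 1.36.0, HTSeq 2.01, TopHat2 2.1.1 and cutadapt 2.10 are the tools, that appear in the submitters' processing notes. Per the file headers, the authors deposited a raw count per gene and library and a normalized signal, the count divided by a size factor. Of 55414 genes, 6250 were blank and left out, and 1399 have no symbol. The table has 0 columns of other samples.

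Libraries were grouped by the tissue label. Counts were filtered with edgeR's filterByExpr (minimum count 10), scaled by TMM and tested two-sided by the quasi-likelihood F-test with robust dispersion and Benjamini-Hochberg adjustment (edgeR 4.0.16, limma 3.58.1, DESeq2 1.42.0, R 4.3.3), which was tested on simulated data first. Standard errors are log2 fold change over the root of F, and intervals are at 95%. Log2 CPM uses a prior count of 2. No molecular identifiers are named, so reads need not stand for separate molecules. Exon lengths come from a GRCm38 annotation (GENCODE M21), not the build of the counts. Every pair of libraries of a side differed by more than sampling noise.

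The members and the 21 other gene lists were chosen with earlier results of these data known. The genes named outside the members were, by rule, the tested receptors of the members, the tested inducing cytokines and up to 4 tested members of each other list with the smallest p, with the 3 nearest patterns to each member. Genes outside this rule (Odam, Amtn, Zmynd15, Il11ra1, Ccl2, Ppbp, Lcn2 and untested or uncalled list members) were chosen after their values were seen. So were Gprc5a, BC037156, Mfsd4a, Aldh1a3 and Tnfrsf11b. As alternatives, scaling was by RLE, upper quartile or library totals, the filter was dropped or set to 1 CPM in 5 libraries, the test was DESeq2's Wald test, limma-voom or limma-trend (the last on log2 of the deposited normalized signal plus 1), a replicate block was added, and each library was left out. Counts of each list without each library were added after seeing the data.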

Additional observations from a re-analysis of the deposited data

Results flagged for a closer look

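In each side the highest and lowest library of every chemokine was compared with its nearest neighbour on the log2 CPM scale, and a library was marked when that gap was more than 0.71 of the whole range of the 5 libraries. Of 20 groups examined, 2 were marked, where chance marks about 1 in 20. Both were buccal replicate 4, the lowest library of its side. Its Cxcl1 level was -0.28 log2 CPM with the next library at 2.04 (gap of 0.804 of the range), and its Cxcl5 level was -1.17 log2 CPM with the next library at 3.01 (gap of 0.777). On the linear CPM scale 0 groups were marked. The cause was not tested.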

How the results depend on the processing

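Ccl27a, Ccl28, Cxcl14 and Cxcl16 kept their direction and their call under every alternative that could test them. Requiring at least 1 CPM in 5 libraries left 5 of the chemokines in the test, and the count called higher was then 1. Leaving out each library gave 3 chemokines higher throughout and 1 to 2 lower, the second being Cxcl1 without buccal replicate 4, and Cxcl1 ran from -0.69 to -0.25. Ccl20 ran from -0.078 without palatal replicate 3 to 0.20, and was -0.025 without palatal replicate 1. Cxcl5 ran from -1.01 to -0.45 over the omissions and was -0.17 with limma-voom and -0.08 with limma-trend, and Cxcl1 was -0.24 and -0.19 there, while Cxcl2 ran from -0.63 to -0.11 over the omissions. Over all genes the omissions gave 2348 to 2613 higher and 2516 to 2817 lower. Among uncalled genes outside the set, Il36a ran from -0.084 to 0.038, Il36b from -0.019 to 0.11 and Pecam1 from -0.26 to 0.16 over the omissions, so their sign turned. Library totals gave 2184 higher and 3260 lower and shifted the median by -0.05. The cause of these changes was not tested. Whether the replicate numbers pair the samples is not settled. Same-numbered deviations correlated at -0.02 to 0.33, 2 of 5 over 0.1, and 5 of 10 libraries correlated best with their own number. With the replicate block 3 chemokines were higher and 1 lower, and all genes gave 2643 higher and 2875 lower; Zfp36l2 (adjusted p = 0.0230) and S100a8 (adjusted p = 0.0268) were then called, which they were not without it. Low counts limit the values of Cxcl17 (44 palatal and 17 buccal in all), Ccl20 (75 and 75), Ccl27a (136 and 61), Ccl28 (165 and 78) and Cxcl2 (88 and 127).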
